A study of Mus musculus with 12 samples.

Results

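Ptpn5, Galnt14, Vsig10, Cavin1 and Dkk3 are 5 protein-coding genes of the 55450 in a table of gene counts from mouse thymus. They were chosen by their counts in these same libraries, as genes with nearly all of their transcript in 1 of 3 sorted CD4+ T cell populations, the Eos+ regulatory T cells (Tregs). Their high level in that population is therefore a description of the choice, and no p-value is given for it. The rule set no numerical limit.

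RNA was sequenced from 12 libraries, 4 per population. All cells came from mice that carried CD4-Cre, a recombinase driven by CD4 regulatory sequence, together with Foxp3-GFP, a green fluorescent reporter of the Treg transcription factor Foxp3. The labels name no floxed allele. Eos+ Tregs were the CD4+ Foxp3+ thymus cells that stained for both chemokine receptors Ccr6 and Cxcr4, Eos- Tregs were the CD4+ Foxp3+ cells negative for both, and conventional T cells (Tconv) were CD4+ and Foxp3-. Eos, the product of Ikzf4, names the groups but was not itself part of the gate. The labels also list Eos+ and Eos- as the genotype of the Treg samples, while the protocol describes a sort from 1 kind of mouse, and the groups are read here as sorted populations. Age and the number of animals per library were not given in the labels. Library names carry 1 identifier per replicate number in all 3 groups, so libraries with the same number share a source by name. Where nothing says that these sources were separate animals, p-values measure only the spread between these libraries.

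The thymus makes new T cells, and it also holds Tregs that have returned from the circulation, a population known for surface Ccr6. Regulatory T cells restrain immune responses under the control of Foxp3. The 5 genes belong to unrelated protein families. Ptpn5 encodes STEP, a tyrosine phosphatase best known from neurons, where it acts on MAP kinases and on the kinases Fyn and Pyk2. Galnt14 encodes a Golgi enzyme that starts mucin-type O-glycans by placing GalNAc on serine or threonine. Vsig10 encodes a membrane protein with immunoglobulin domains. Cavin1 encodes a coat protein that works with caveolins to form caveolae, small pits of the plasma membrane. Dkk3 encodes a secreted glycoprotein of the Dickkopf family, whose classical members bind Wnt co-receptors.

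In the mm10 build (GRCm38) with GENCODE M21, Ptpn5 lies on the minus strand at chr7:47077795-47133684 and Dkk3 on the same strand and chromosome at chr7:112116017-112159057. Galnt14 is at chr17:73493228-73710453 on the minus strand, Vsig10 at chr5:117319083-117355005 on the plus strand, and Cavin1 at chr11:100956733-100970887 on the minus strand. The libraries did not mark strand. Annotated exons of Galnt14 share 36 bases with the antisense gene AC107792.1, which had no counts in any library, and exons of Vsig10 share 162 bases with the antisense gene Gm10399, which reached at most 0.316 counts per 1000000 (CPM, defined with the levels). The exons of the other 3 genes overlapped no other gene. Every value of the 5 genes was a whole number in all 12 libraries, so none showed reads divided between genes by the counting.

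Promoter windows of 250 bases before each RefSeq start (GRCm38.p6 table) were found for 4 of the 5 genes, all but Dkk3, and are shown because the genes were high in the same libraries. The stretches below lie outside annotated exons and read 5′ to 3′ on the minus strand, chr17:73710454-73710701 for Galnt14 and chr7:47133685-47133934 for Ptpn5. Capitals mark CCGCCC, which is the Sp1 motif GGGCGG read on the other strand.
Galnt14: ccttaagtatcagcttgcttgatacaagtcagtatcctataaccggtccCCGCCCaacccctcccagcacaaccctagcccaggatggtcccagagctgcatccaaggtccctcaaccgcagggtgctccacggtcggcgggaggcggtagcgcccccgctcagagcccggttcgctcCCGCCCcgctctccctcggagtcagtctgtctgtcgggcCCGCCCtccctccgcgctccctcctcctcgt
Ptpn5: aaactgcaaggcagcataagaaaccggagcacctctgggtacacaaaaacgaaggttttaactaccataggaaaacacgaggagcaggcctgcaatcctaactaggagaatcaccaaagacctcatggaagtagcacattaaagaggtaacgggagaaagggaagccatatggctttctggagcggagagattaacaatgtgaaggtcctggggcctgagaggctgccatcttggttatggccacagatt
Galnt14's window held GGGCGG 3 times on either strand, and its GC content was 66.4%. The Ptpn5 window above, at the start at 47133684, held none and had 48.0% GC, close to the median of 52.4% over 32851 windows. A further Ptpn5 start at 47132598 had 66.0% GC and 3 GGGCGG matches. Cavin1 and Vsig10 held 1 match each, at 67.6% and 74.0% GC. All 250 bases of the Cavin1 and Vsig10 windows, and of the further Ptpn5 window, lay within annotated exons. GGGCGG occurred in 32.7% of all windows. Of 5 other motifs searched on both strands, the Runx motif TGTGGT occurred once, in the downstream Ptpn5 window, and in 14.0% of all windows. The forkhead motif TGTTTAC, the Ikaros family motif TGGGAA, the AP-1 motif TGANTCA and TATAAA did not occur in these windows, against 3.17%, 21.6%, 6.75% and 12.4% of all windows.

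Levels are given as CPM, that is, expected counts (the read estimates of RSEM) per 1000000 of a library total that was scaled by TMM, a correction for differences in RNA composition. Library totals ran from 23.9 to 37.9 M. Over a whole group, 3 counts, taken as the most that a count of 0 allows, correspond to 0.0222 CPM in Eos+ Tregs, 0.0244 CPM in Eos- Tregs and 0.0233 CPM in Tconv. Such limits and the intervals given for small counts cover the error of counting alone, because reads were not tagged as separate molecules. A lower level in a sorted population can mean fewer cells with the transcript or less of it per cell, which cannot be told apart here.

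The transcripts of the sort and label genes differed in how well they followed the gates. CD4 T cell markers were present in all 12 libraries. Foxp3 was at 504 ± 329 CPM in Eos+ Tregs, 582 ± 363 CPM in Eos- Tregs and 2.03 ± 1.47 CPM in Tconv (SD, n = 4). Both Treg libraries numbered 1 stood apart, at 55.0 and 53.3 CPM of Foxp3, while the other 6 held 485 to 862 CPM. Other Treg markers did not drop in this way there. Il2ra, at 538 and 496 CPM, and Ctla4, at 436 and 261 CPM, were within the range of their groups. Ikzf2, at 465 and 262 CPM, and Tnfrsf18, at 1120 and 816 CPM, were the lowest of their groups. Lrrc32 was at 376 and 218 CPM, the lowest among Eos+ Tregs only. Ccr6 averaged 246, 14.4 and 3.27 CPM and Ikzf4 314, 171 and 25.3 CPM in the same order. Cxcr4, the other receptor of the gate, averaged 39.1, 28.7 and 15.2 CPM. Its Eos+ libraries (25.2 to 52.9 CPM) overlapped the Eos- libraries (22.7 to 42.3 CPM), although Eos- Tregs were sorted as negative for it, and the difference did not pass the test (1.36-fold, adjusted p = 0.402 by edgeR). The Y-linked gene Ddx3y was present in libraries numbered 1 and 3 and at 0 in those numbered 2 and 4, in every group.

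Ptpn5 was the most abundant of the 5 genes. Its level in Eos+ Tregs was 62.3, 93.2, 83.9 and 84.9 CPM in replicates 1 to 4. In Eos- Tregs it was 1.33, 0.570, 0.242 and 0.862 CPM, and in Tconv 4.18, 2.31, 3.76 and 5.78 CPM. The 3 groups did not overlap, and Eos- Tregs were the lowest. The group means were 81.1 ± 13.2, 0.751 ± 0.461 and 4.01 ± 1.43 CPM (SD, n = 4). The fitted difference was 109-fold between Eos+ and Eos- Tregs (log2 6.77, SE 0.43) and 20.1-fold between Eos+ Tregs and Tconv (log2 4.33, SE 0.37). Without the 3 libraries numbered 1 the log2 values were 7.24 and 4.45.

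Galnt14, the O-glycan initiating enzyme, was at 23.3, 17.9, 12.4 and 14.9 CPM in Eos+ Tregs. Its level in Eos- Tregs was 0.789, 0.655, 0.311 and 0.144 CPM. In Tconv 3 libraries had no count, and replicate 4 had 15 counts, or 0.394 CPM. Every Eos+ library was above all 8 others, whereas the single Tconv library with counts lay inside the Eos- range. The means were 17.1 ± 4.66, 0.475 ± 0.299 and 0.0986 ± 0.197 CPM (SD, n = 4). Eos+ Tregs were 36.2-fold above Eos- Tregs (log2 5.18, SE 0.84) and 151-fold above Tconv (log2 7.24, SE 0.96; 8.82 with limma-voom). Without Tconv replicate 4, the difference from Tconv was at least 516-fold.

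Vsig10 had the narrowest spread in Eos+ Tregs, at 10.5, 10.5, 12.4 and 13.3 CPM. Eos- Tregs held 0.415, 0.171, 0.104 and 0.373 CPM, from 32 counts in all. In Tconv the gene was represented by 1 count, in replicate 3 (0.0311 CPM). No library outside Eos+ Tregs came within a factor of 10 of them. The means were 11.6 ± 1.41, 0.266 ± 0.152 and 0.00777 ± 0.0155 CPM (SD, n = 4). Eos+ Tregs were 43.6-fold above Eos- Tregs (log2 5.45, SE 0.48). Against Tconv the ratio was 1500, with an exact 95% counting interval from 270 to 59500. Without Tconv replicate 3, which held the only count, it was at least 376-fold.

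Cavin1, the caveolar coat gene, varied most among Eos+ Tregs, at 4.73, 16.0, 29.9 and 12.0 CPM. Eos- Tregs held 1.87, 2.42, 1.62 and 0.689 CPM, and none of the 4 Tconv libraries had a count. Replicate 1 of the Eos+ Tregs was the lowest and replicate 3 the highest, 6.31 times as high, yet the lowest was still above every Eos- library. The means were 15.7 ± 10.6 and 1.65 ± 0.723 CPM in the Treg groups (SD, n = 4). Eos+ Tregs were 9.47-fold above Eos- Tregs (log2 3.24, SE 0.58), the smallest such difference among the 5 genes, and at least 682-fold above Tconv.

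Dkk3, the secreted Dickkopf relative, was at 38.2, 10.1, 22.1 and 15.4 CPM in Eos+ Tregs. In Eos- Tregs replicate 1 held 66 counts, or 2.74 CPM, and the other 3 libraries none. Tconv had no counts. Replicate 1 was thus the highest library in both Treg groups, and the groups did not overlap. The mean in Eos+ Tregs was 21.5 ± 12.2 CPM and in Eos- Tregs 0.685 ± 1.37 CPM (SD, n = 4). Eos+ Tregs were 33.2-fold above Eos- Tregs (log2 5.05, SE 1.42) and at least 908-fold above Tconv. The first of these values moved with the model, to log2 6.81 with the replicate number as a block and 8.52 with limma-voom. Without Eos- replicate 1, which stands apart in Foxp3, the Eos- group had no count, and the difference was at least 696-fold.

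**Figure D1:**
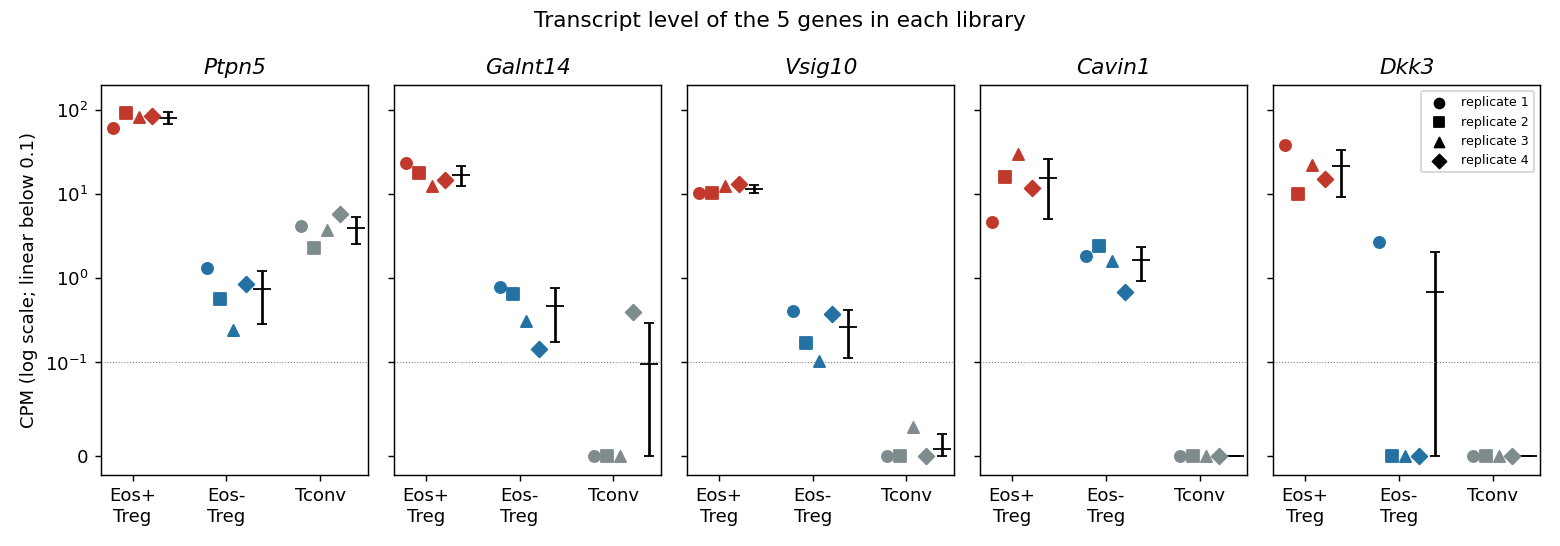
CPM of each gene in each of the 12 libraries, on an axis that is logarithmic above 0.1 and linear below it; marker shapes give the replicate number, and black bars the mean ± SD (n = 4), cut at 0. All 4 Eos+ Treg libraries lie above the other 8 for each gene, Ptpn5 has Tconv above Eos- Tregs, and Cavin1 and Dkk3 are at 0 in Tconv.

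For all 5 genes the Eos+ libraries lay above all Eos- libraries and above all Tconv libraries. Of all 15361 genes tested, 12.1% had Eos+ libraries wholly above Eos- libraries and 18.5% wholly above Tconv. Since the genes were selected on this pattern, nothing follows from their count. All 5 passed the filter on low counts, for which their level in Eos+ Tregs alone sufficed. The highest value outside Eos+ Tregs was 5.78 CPM, for Ptpn5 in Tconv replicate 4.

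The share of the 3 group means that fell to Eos+ Tregs was 97.7% for Vsig10, 96.9% for Dkk3, 96.8% for Galnt14, 94.5% for Ptpn5 and 90.5% for Cavin1. The median share was 33.4% over the 10128 genes with at least 5 CPM in Eos+ Tregs. Vsig10 was among the 6 genes with a share at or above its own, and Cavin1 among 56. Ccr6, on which the cells were sorted, had a share of 93.3%, below that of Ptpn5 and above that of Cavin1. Ikzf4 had a share of 61.6% and Foxp3 46.3%. What lay outside Eos+ Tregs differed by gene: for Ptpn5 it was mostly Tconv, at 4.67% against 0.875% in Eos- Tregs, and for Vsig10, Galnt14, Cavin1 and Dkk3 it was mostly or wholly Eos- Tregs.

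**Figure D2:**
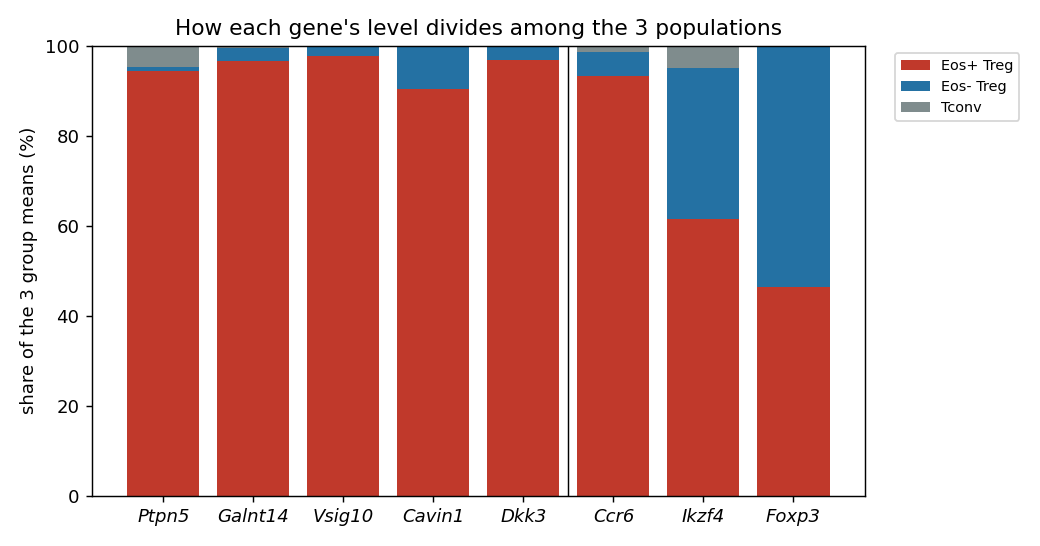
Share of the summed 3 group means (percent, stacked to 100) in each population for the 5 genes and, right of the line, for the sort gene Ccr6, for Ikzf4 and for Foxp3. Eos+ Tregs hold 90.5% to 97.7% for the 5 genes, 61.6% for Ikzf4 and 46.3% for Foxp3.

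Levels of different genes were compared per kilobase of annotated exon. In Eos+ Tregs the mean level was 14.0 CPM per kilobase for Ptpn5, 6.39 for Dkk3, 4.36 for Cavin1, 2.90 for Galnt14 and 2.20 for Vsig10. Neighbours in this order were not separated by their libraries. Ptpn5's lowest library, at 10.8 CPM per kilobase, was below Dkk3's highest at 11.4, and both were replicate 1. Dkk3 and Cavin1 ranged from 3.00 to 11.4 and from 1.32 to 8.33 CPM per kilobase, and Galnt14 and Vsig10 from 2.11 to 3.94 and from 1.97 to 2.50. Ptpn5 lay above Cavin1, Galnt14 and Vsig10 in every Eos+ library.

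The genes differed in how evenly the Eos+ libraries held them. The coefficient of variation over the 4 libraries was 12.1% for Vsig10, 16.3% for Ptpn5, 27.3% for Galnt14, 57.0% for Dkk3 and 67.6% for Cavin1, against a median of 13.9% over the same 10128 genes. Of these genes, 98.0% varied less than Dkk3 and 98.9% less than Cavin1. Their extremes did not coincide. Replicate 1 was highest for Dkk3 and Galnt14 but lowest for Cavin1 and Ptpn5, and replicate 3 was highest for Cavin1 but lowest for Galnt14.

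Outside Eos+ Tregs the genes differed in which group held what remained. They were chosen as low in both Eos- Tregs and Tconv, and Galnt14, Vsig10 and Dkk3 passed the filter on low counts only through Eos+ Tregs, so this comparison is a description and no p-value is given for it. The libraries of the 2 groups did not overlap for Vsig10 and Cavin1, with Eos- Tregs above, and for Ptpn5, with Eos- Tregs below. Of all genes tested, 10.5% had Eos- Tregs wholly above Tconv and 9.64% wholly below, edgeR called 8.76% higher and 5.89% lower at an adjusted p under 0.05, and nothing is read from the count of the 5 genes against these shares. The counts behind the differences were small.

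Ptpn5 had 89 counts in Eos- Tregs against 534 in Tconv, a fitted level 5.43-fold lower (log2 -2.44, SE 0.38). Cavin1 had 201 counts against 0 and was at least 70.3-fold higher in Eos- Tregs. Vsig10 had 32 counts against 1, a ratio of 33.6 with an exact 95% counting interval from 5.61 to 1370, and without Tconv replicate 3 the ratio was at least 8.40-fold.

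Galnt14 had 56 counts in Eos- Tregs, spread over all 4 libraries, against 15 in Tconv, all in replicate 4. Dkk3 had 66 counts against 0, all of them in Eos- replicate 1, and without that library neither group held a count.

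Set against the Eos+ library of the same number, the Eos- level of Cavin1 was 39.5%, 15.1%, 5.44% and 5.76% in replicates 1 to 4. The corresponding values were 3.39%, 3.67%, 2.50% and 0.964% for Galnt14, 3.97%, 1.63%, 0.839% and 2.81% for Vsig10, and 2.13%, 0.612%, 0.288% and 1.01% for Ptpn5. Dkk3 was at 7.17% in replicate 1 and 0 in the others. Ccr6, which was sorted against in Eos- Tregs, stood at 5.74%, 7.92%, 3.94% and 5.90%. Ptpn5 and Galnt14 were below the Ccr6 percentage in all 4 replicates, as was Vsig10. Cavin1 was above it in replicates 1, 2 and 3, and Dkk3 in replicate 1. The genes were chosen as low in Eos- Tregs, so nothing is read from a place below Ccr6.

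**Figure D3:**
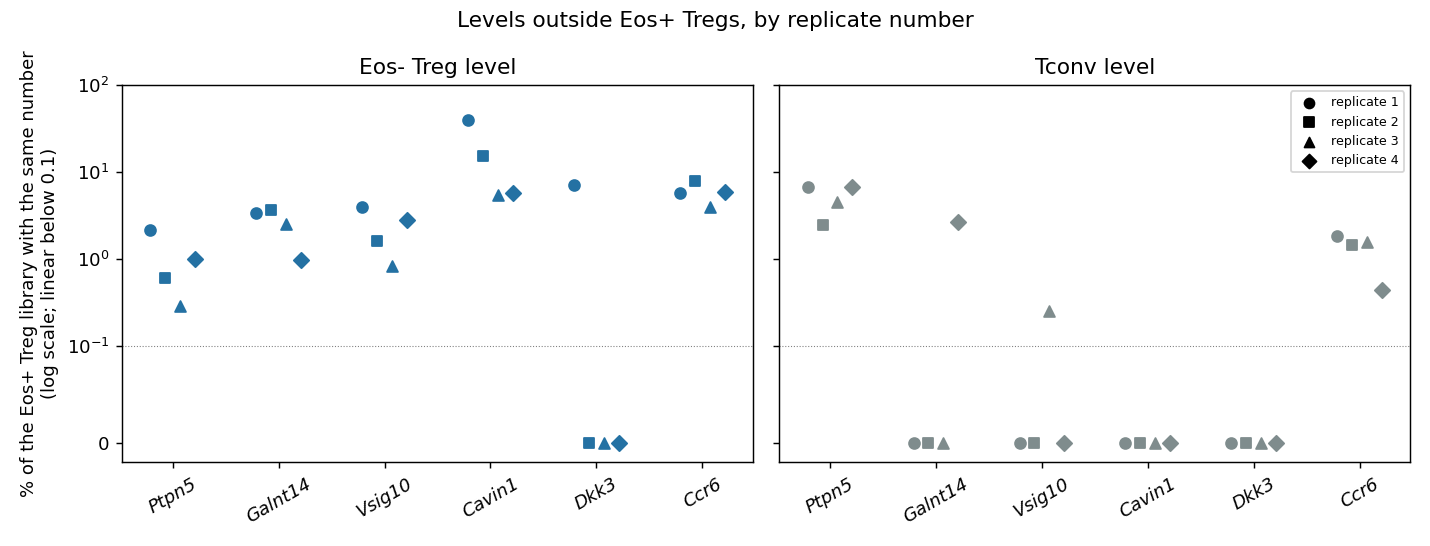
Level in Eos- Tregs (left) and in Tconv (right) as a percentage of the Eos+ library with the same number, for the 5 genes and Ccr6, on an axis that is logarithmic above 0.1% and linear below it. Cavin1 in Eos- Tregs ranges from 5.44% to 39.5%, Ptpn5 stays at or below 2.13% there, and in Tconv Ptpn5 is at 2.48% to 6.81% while Cavin1 and Dkk3 are at 0.

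Marker genes of further thymic cell types were summed per library, since such cells could pass the gates. The B cell list (9 of 10 genes tested) was at 1400 to 1830 CPM in Eos+ Tregs, 177 to 473 CPM in Eos- Tregs and 229 to 405 CPM in Tconv, and none of its genes was at 0 throughout a group. Ighm made up most of it, with 1330 to 1660 CPM in Eos+ Tregs. Cd79a, a subunit of the B cell receptor, was at 28.0, 17.3, 6.15 and 4.81 CPM in the Eos+ libraries, and Pax5, which defines the B lineage, at 0.376, 0.201, 0.117 and 0 CPM. Genes of the list did not all follow this order: Ighm in Eos+ replicate 4 was at 1560 CPM and Ighd at 17.6 CPM, each the second highest of the group. Dkk3 and Cd79a were both highest in replicate 1 in each Treg group. Tconv replicates 1 to 3 held Cd79a at 16.9, 8.13 and 8.92 CPM with no count of Dkk3. Eos+ replicate 2 had the second highest Cd79a of its group and the lowest Dkk3. Cd79b, also of the list, was at 49.5, 46.4, 33.0 and 25.8 CPM in Eos+ replicates 1 to 4. It was at most 11.3 CPM in Eos- Tregs and 10.6 CPM in Tconv. The part of B cell transcript in the levels of the 5 genes was not tested.

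Replicate 1 stood apart in further markers. The hemoglobin gene Hba-a2 was at 205, 179 and 139 CPM in replicate 1 of Eos+ Tregs, Eos- Tregs and Tconv and at most 14.2 CPM in the other 9 libraries. Rag1, which recombines receptor genes in immature thymocytes, was at 28.0, 6.14, 1.17 and 1.50 CPM in Eos+ Tregs and 35.6, 15.6, 0 and 0.0574 CPM in Eos- Tregs, while in Tconv replicate 2 was highest at 44.4 CPM. Summed erythroid and granulocyte markers (5 of 8 tested) ran from 0.0861 to 511, 0.0691 to 455 and 0.177 to 366 CPM in the 3 groups, and Elane was at 0 in all of them. Double-positive thymocyte markers (7 of 7) summed to 80.6 to 347, 111 to 429 and 225 to 495 CPM, and markers of CD8, natural killer and gamma-delta T cells (8 of 9) to 161 to 338, 79.3 to 302 and 171 to 313 CPM. The ranges of the 3 groups overlapped for each of these lists.

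Thymic epithelial markers (4 of 10 tested) summed to 31.9 to 46.3 CPM in Eos+ Tregs, 21.9 to 26.7 in Eos- Tregs and 13.1 to 19.4 in Tconv, and Epcam made up most of the sum in Eos+ Tregs. In Eos+ Tregs Cldn3 was at 0, Krt5, Krt14, Foxn1 and Psmb11 were at or below 0.878 CPM, and Aire was at 0.675 to 2.47 CPM. Cavin1 is best known from cells such as fibroblasts and endothelium. Fibroblast markers (4 of 10 tested) summed to 19.7 to 40.0, 12.1 to 28.0 and 35.6 to 37.5 CPM in the 3 groups, and endothelial markers (3 of 9) to 97.8 to 162, 218 to 327 and 189 to 218 CPM, with Cdh5, Tek, Cldn5 and Emcn at 0 in Eos+ Tregs. Thy1 and Pecam1, which T cells also express, made up most of these sums, at 17.3 to 32.1 and 96.7 to 160 CPM in Eos+ Tregs. The collagen gene Col1a2 was at 5.30, 0.603, 2.54 and 2.85 CPM in Eos+ Tregs, at 0.775 CPM in Eos- replicate 4 and at 0 in the other 7 libraries. Other genes of the fibroblast list did not follow it. Col1a1 reached 0.402 CPM in Eos+ Tregs, 1.08 CPM in Eos- Tregs and 1.31 CPM in Tconv, and Pdgfrb 0.878, 1.12 and 2.45 CPM. Col3a1, Pdgfra, Dcn and Lum were at or below 0.721 CPM in Eos+ Tregs. Dendritic cell and macrophage markers (11 of 12) summed to 53.7 to 132, 7.78 to 83.5 and 30.7 to 59.6 CPM, and innate lymphoid markers (4 of 8) to 344 to 595, 120 to 287 and 306 to 516 CPM. The part of these cells in the levels of the 5 genes was not tested.

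Across the 12 libraries, Pearson's r of log2(CPM + 1) between pairs of the 5 genes ran from 0.77 (Ptpn5 and Cavin1) to 0.98 (Galnt14 and Vsig10). These values mostly reflect the separation of Eos+ Tregs from the other libraries, which chose the genes. Among 9657 other genes with at least 5 CPM in Eos+ Tregs, the profile most like that of Ptpn5 was Fbxw8 (r = 0.998, n = 12), a cullin ligase subunit that was at 65.4 ± 4.94, 14.0 ± 1.91 and 22.0 ± 4.04 CPM. It shared with Ptpn5 the order of Eos+ Tregs, Tconv, Eos- Tregs, as did the next gene, the chemokine receptor Ccr8 (r = 0.985), at 276, 103 and 148 CPM.

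The genes most like the others were Gas2l1 for Galnt14 (r = 0.996), Muc16 for Vsig10 (r = 0.995), Snx9 for Cavin1 (r = 0.976) and Igsf9b for Dkk3 (r = 0.988). Muc16, a membrane mucin, was at 10.2 ± 2.10 CPM in Eos+ Tregs and at 0 in both other groups (n = 4). Tff1, a secreted trefoil peptide, followed it for Vsig10 (r = 0.994), at 42.8 ± 13.7, 0.279 ± 0.153 and 0.00657 ± 0.0131 CPM. Snx9, a sorting nexin of endocytosis, was at 41.1 ± 14.7, 10.4 ± 1.16 and 3.54 ± 0.947 CPM, so its mean, like that of Cavin1, was larger in Eos- Tregs than in Tconv. For the mean of the 5 standardised profiles the closest genes were Muc16, Dusp14, Gas2l1, Osbpl3 and Jdp2, at r between 0.987 and 0.990. Dusp14, a phosphatase of MAP kinases, was at 27.2 ± 4.86, 1.00 ± 0.578 and 0.236 ± 0.146 CPM.

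Of the 10 protein-coding genes nearest to the 5 genes, 8 were tested. Of these, 1, Mical2, was called higher in Eos+ than in Eos- Tregs, as were 9.82% of all genes tested. Usp47, 4.40 kb from Dkk3, was at 190, 229 and 191 CPM, and Wsb2, 2.30 kb from Vsig10, at 92.9, 88.6 and 91.1 CPM in Eos+ Tregs, Eos- Tregs and Tconv. Mical2, on the other side of Dkk3 at 66.8 kb, was higher in Eos+ Tregs than in Eos- Tregs, at 4.11 against 0.737 CPM (log2 2.48, adjusted p = 0.0212 by edgeR), and than in Tconv (log2 2.37, adjusted p = 0.0146 by edgeR). Capn13, 92.4 kb from Galnt14, was too low to be tested, at 1.32, 0 and 0.0263 CPM. Stat3, 17.2 kb from Cavin1, was at 700, 589 and 308 CPM. Atp6v0a1, on the other side of Cavin1 at 38.6 kb, was at 22.5, 33.2 and 4.04 CPM. Both were higher than in Tconv in Eos+ Tregs (adjusted p = 2.41e-05 and 0.000585 by edgeR) and in Eos- Tregs (0.000469 and 0.000425). Ehd3, 93.7 kb from Galnt14, was lower in Eos+ Tregs than in Tconv (adjusted p = 0.00106 by edgeR). The remaining tested neighbours were not called against Tconv. In Eos+ Tregs against Tconv, 17.3% of all genes tested were higher and 13.0% lower.

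The families and pathways of the 5 genes were read from lists of relatives, with the 5 genes left out. In each list, genes were tested in Eos+ against Eos- Tregs and in Eos+ Tregs against Tconv, where 9.82% and 17.3% of all genes were higher and 6.45% and 13.0% lower. Both comparisons use the same Eos+ libraries.

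Of 15 non-receptor tyrosine phosphatases tested beside Ptpn5, 3 were higher in Eos+ than in Eos- Tregs and 1 lower, with a median log2 difference of 0.14 against 0 for all genes. Against Tconv 5 were higher and 5 lower. Ptpn13, a large phosphatase of the cell cortex, was at 33.4 ± 10.6, 8.19 ± 4.49 and 4.99 ± 1.43 CPM (n = 4), 4.09-fold above Eos- Tregs (adjusted p = 0.00617 by edgeR). Ptpn9 was 1.88-fold and Ptpn22, which restrains T cell receptor signalling, 1.58-fold higher (adjusted p = 0.000482 and 0.00440 by edgeR). Ptpn12 was 1.67-fold lower (adjusted p = 0.0207 by edgeR), a call lost without Eos+ replicate 2 or 3 or Eos- replicate 2 (adjusted p = 0.0623, 0.0599 and 0.0608). The phosphatases closest to Ptpn5 in their kinase-binding motif are Ptpn7 and Ptprr. Ptpn7 was at 258 ± 37.0, 233 ± 22.7 and 377 ± 30.5 CPM, and Ptprr had 3, 15 and 0 counts per group. Per kilobase, Ptpn7 at 42.2 CPM was above Ptpn5 at 14.0 in Eos+ Tregs, and in Eos- Tregs the values were 38.3 and 0.130.

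Of 7 kinases known as substrates of Ptpn5, none rose and 3 were lower in Eos+ than in Eos- Tregs, with a median log2 difference of -0.18. Ptk2b, which encodes Pyk2, was at 230 ± 27.1 against 444 ± 47.1 CPM, 1.93-fold lower (adjusted p = 5.75e-05 by edgeR). Mapk11, a p38 kinase, was 1.60-fold and the Src family kinase Fyn 1.29-fold lower (adjusted p = 4.72e-05 and 0.00182 by edgeR). All 3 were also lower against Tconv, while Mapk12, a further p38 kinase, was 2.28-fold higher there (adjusted p = 0.00108 by edgeR), at 7.22 ± 1.09, 7.34 ± 0.522 and 3.17 ± 0.786 CPM. Mapk3, an Erk kinase, was at 42.4 CPM in Eos+ Tregs and 43.5 CPM in Eos- Tregs and did not pass the test (adjusted p = 0.908 by edgeR).

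Among 18 further GalNAc transferases, 10 were tested and 8 were too low. None was higher in Eos+ Tregs in either comparison, 3 were lower against Eos- Tregs (median log2 -0.20) and 4 lower against Tconv (median log2 -0.38). Galnt14 was chosen as high in Eos+ Tregs, so nothing is read from its direction beside theirs. Galnt10 was at 151 ± 35.9, 350 ± 37.6 and 450 ± 31.6 CPM, 2.31-fold below Eos- Tregs (adjusted p = 0.000135 by edgeR). Galnt6 was at 265 ± 51.0, 484 ± 47.5 and 650 ± 55.1 CPM, 1.83-fold below (adjusted p = 0.000555 by edgeR). Per kilobase, Galnt14 in Eos+ Tregs, at 2.90 CPM, stayed under Galnt6 at 68.4, Galnt1 at 38.2 and Galnt10 at 25.4. Galnt4 was 1.54-fold lower (adjusted p = 0.0382 by edgeR), and this call was lost without any 1 of the Eos+ libraries (adjusted p = 0.0889, 0.0967, 0.0604 and 0.0535), Eos- replicate 3 or 4 (0.113 and 0.0812) or Tconv replicate 4 (0.0502).

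Of 10 enzymes tested that extend O-glycans, 1 was higher and 1 lower in Eos+ against Eos- Tregs (median log2 0.30), and with the replicate number as a block 4 were higher and 2 lower. Against Tconv 5 were higher and 2 lower (median log2 0.34). St6galnac6, a sialyltransferase, was at 8.99 ± 2.38, 3.44 ± 0.902 and 0.800 ± 0.587 CPM, 11.1-fold above Tconv (adjusted p = 0.000441 by edgeR). Its relative St6galnac2 was at 0.0803 ± 0.0877, 0.0705 ± 0.0814 and 2.08 ± 0.812 CPM and was lower than in Tconv (adjusted p = 0.00442 by edgeR). Gcnt1, which makes the core-2 branch, was at 11.0 ± 3.15, 1.52 ± 1.27 and 2.02 ± 0.852 CPM, 7.24-fold above Eos- Tregs and 5.45-fold above Tconv (adjusted p = 0.0108 and 0.0126 by edgeR). St3gal1, a sialyltransferase that caps core-1 glycans, was 1.50-fold lower than in Eos- Tregs (adjusted p = 0.0188 by edgeR), which was lost without Eos- replicate 2 or 3 (adjusted p = 0.0578 and 0.0530). C1galt1 and its chaperone C1galt1c1, which make core 1, were at 44.0 and 17.8 CPM in Eos+ Tregs and at 56.5 and 17.5 CPM in Eos- Tregs. They did not pass in the main fit (adjusted p = 0.0534 and 0.941 by edgeR). With the replicate number as a block C1galt1 was called lower, and St3gal2, St6galnac3 and St6galnac4 were called higher.

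Of 15 genes for V-set and related immunoglobulin proteins, 4 reached the test, and 1 of them was called in Eos+ against Eos- Tregs (median log2 0.45) and 1 against Tconv (median log2 0.13). Vsig10l, the gene named for its likeness to Vsig10, was at 7.77 ± 1.89, 0.869 ± 0.315 and 1.36 ± 0.534 CPM (n = 4). It was 8.90-fold above Eos- Tregs and 5.69-fold above Tconv (adjusted p = 0.000156 and 0.000196 by edgeR). Per kilobase, Vsig10l was at 1.91 and Vsig10 at 2.20 CPM in Eos+ Tregs. Vsir, which encodes the checkpoint protein VISTA, was at 204, 170 and 176 CPM and was not called.

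Few other genes that build caveolae had counts. Cavin2, Cavin3, Cavin4 and Cav3 had no counts in any library, and Cav1, the main caveolin, had 0 counts in both Treg groups and 19 in Tconv. Cav2 had 52, 3 and 10 counts per group. Of 11 caveola genes listed beside Cavin1, 3 were tested, and all 3, membrane remodelling genes with further roles in endocytic traffic, were higher in Eos+ than in Eos- Tregs (median log2 0.93). Ehd4 was 2.85-fold, Pacsin2 1.91-fold and Ehd1 1.81-fold higher (adjusted p = 0.000300, 0.000848 and 0.00309 by edgeR). Against Tconv they were 1.74-fold, 1.38-fold and 3.26-fold higher (adjusted p = 0.00754, 0.0266 and 7.06e-06 by edgeR). The Pacsin2 call against Tconv was lost without Eos+ replicate 1, 2 or 3 (adjusted p = 0.0640, 0.0792 and 0.0746) and without Tconv replicate 2, 3 or 4 (0.0775, 0.0585 and 0.0520).

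The Dickkopf genes Dkk1, Dkk2 and Dkk4 had no counts in any library, so Dkk3 was the sole Dkk gene seen. Of 5 tested genes for Dickkopf relatives and receptors, 2 were higher and 2 lower in Eos+ Tregs, in both comparisons (median log2 -0.20 and -0.28). Dkkl1, a Dickkopf-like secreted protein, was at 8.58 ± 2.38, 0.745 ± 0.553 and 1.09 ± 0.394 CPM, 11.6-fold above Eos- Tregs (adjusted p = 0.00664 by edgeR). Kremen2, a Dickkopf receptor, was 4.97-fold higher at 3.01 ± 0.757 CPM (adjusted p = 0.00188 by edgeR). Kremen1 was 1.59-fold and the Wnt co-receptor Lrp5 3.23-fold lower than in Eos- Tregs (adjusted p = 0.0254 and 0.0195 by edgeR). The Kremen1 call was lost without Eos+ replicate 1, 2 or 4 or Eos- replicate 3 (adjusted p = 0.0692, 0.0618, 0.0567 and 0.0797), and that of Lrp5 without Eos+ replicate 2 or 3 or Eos- replicate 2 (0.0519, 0.0575 and 0.0634). Lrp6, the other co-receptor, had 34.8 CPM in Eos+ and 40.1 CPM in Eos- Tregs (adjusted p = 0.436 by edgeR).

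Of 21 further Wnt pathway genes tested, 3 were higher and 4 lower in Eos+ than in Eos- Tregs, with a median log2 difference of -0.01. Against Tconv 2 were higher and 4 lower (median log2 -0.18). Lef1, a nuclear effector of the pathway, was at 303 ± 36.4, 668 ± 88.0 and 1180 ± 115 CPM, 2.20-fold below Eos- Tregs and 3.90-fold below Tconv (adjusted p = 4.56e-05 and 1.55e-07 by edgeR). Rnf43, a ligase that removes Wnt receptors, was 2.91-fold higher than in Eos- Tregs (adjusted p = 0.00426 by edgeR), while its paralogue Znrf3 had a log2 difference of -0.76 (adjusted p = 0.00918 by edgeR). Ctnnb1, which encodes beta-catenin, did not pass (log2 -0.01, adjusted p = 0.951 by edgeR).

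**Figure D4:**
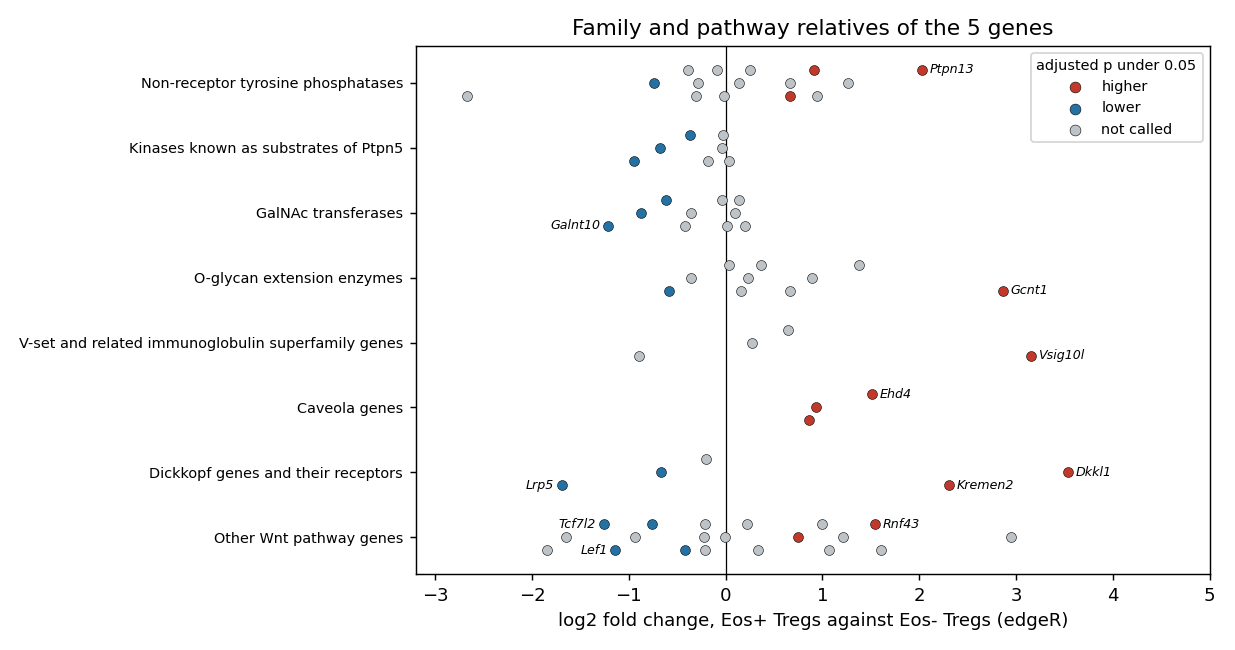
Fitted log2 difference between Eos+ and Eos- Tregs for each tested relative of the 5 genes, 1 point per gene and 1 row per list (vertical offsets within a row carry no value); red points were higher and blue points lower at an adjusted p under 0.05, and Fzd10, with 0 counts in Eos- Tregs, is left out. Vsig10l (8.90-fold), Dkkl1 (11.6-fold) and Gcnt1 (7.24-fold) stand furthest to the right among the called genes, and no GalNAc transferase is red.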

How the data were processed

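Per the labels' protocols, libraries were made by template switching from 1 ng of RNA and tagmented, which does not mark strand. The authors deposited expected counts per gene. The submitters' processing notes name mm10, cutadapt 1.18, STAR 2.7.0f and RSEM 1.3.1; their parameters are not given in the sources used here. Every gene ID (55450) had an entry in GENCODE M21. Between 9.54% and 10.7% of values per library were not whole.

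The counts were rounded and tested with edgeR 4.0.16 in R 4.3.3 (quasi-likelihood F test, TMM factors, filterByExpr, 1 mean per group over 12 libraries, two-sided, Benjamini-Hochberg adjustment over 15361 genes per comparison, threshold 0.05), a procedure first tested on simulated counts. The simulation gave all genes the same spread, set small folds at genes with ample counts and held no pairing. It therefore does not bear on folds against groups at or near 0. Depth was 23.9 to 37.9 M per library. Alternatives were DESeq2 1.42.0, limma-voom (limma 3.58.1), no TMM factors, 2 other filters, the replicate number as a block, no libraries numbered 1, and each library left out in turn.

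The 5 genes, the lists of relatives and markers and the rule for naming genes were chosen with earlier results of these data known. The rule took, by Pearson's r of log2(CPM + 1), the 3 genes most like each of the 5 and the 5 most like their mean, the nearest protein-coding genes, the sort and label genes, and up to 4 called genes per list. Some of the genes this rule and the lists hold are not reported here. The text also names further relatives and markers, for their known roles, after values were seen. Libraries of the same number deviated together from their group means (12 pairs, r from 0.224 to 0.50) and others did not (r at most 0.0764). The numbers, which share an identifier in the library names, were therefore read as pairing the samples. The main fit, which gave the folds and adjusted p-values, held no term for this pairing. The replicate number as a block was run only as an alternative.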

Additional observations from a re-analysis of the deposited data

Results flagged for a closer look

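The 5 genes and 4 sort and label genes in 3 groups gave 27 sets of 4 libraries. Cavin1 and Dkk3 in Tconv, at 0 throughout, had no range and were left out. Each other set was searched for a library far from the other 3. The measure was Dixon's ratio of that library's gap to the nearest one over the whole range, at the 95% limit. In 3 sets a library passed, where chance gives about 1 in 20. Galnt14 was at 0.394 CPM in Tconv replicate 4 and at 0 in the other Tconv libraries. Vsig10 was at 0.0311 CPM in Tconv replicate 3, from 1 count, and at 0 in the others. Dkk3 was at 2.74 CPM in Eos- replicate 1 and at 0 in the other Eos- libraries. In each of the 3 sets the remaining libraries were all at 0, so any count at all passes this limit.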

How the results depend on the processing

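The numbers of genes changed kept within 1.5 times of 2500 (Eos+ against Eos- Tregs), 4655 (Eos+ Tregs against Tconv) and 2249 (Eos- Tregs against Tconv) under every alternative run. With the replicate number as a block they were 3498, 5571 and 3300, and with each library left out they ran from 1910 to 2936, from 3882 to 4947 and from 1574 to 2884. No direction reversed. The block raised the log2 difference of Dkk3 between Eos+ and Eos- Tregs from 5.05 to 6.81. In Eos+ against Eos- Tregs it moved the number of called relatives by over 1.5 times for the O-glycan enzymes (from 2 to 6) and for no other list. Without TMM factors the median log2 difference over all genes in Eos- Tregs against Tconv was -0.045. Of 70 results of other named genes over all 3 comparisons, 18 lost their call under at least 1 alternative. Both numbers include results in Eos- Tregs against Tconv, which are not reported here for the relatives. Depth limits the Eos- and Tconv levels of Galnt14, Vsig10 and Dkk3, which rest on 66 counts or fewer per group, and the size of fitted folds against a group at 0 depends on the tool, so bounds are given for these.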
